A study of Mus musculus with 15 samples.

Results

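The core genes of the circadian clock were examined in whole blood: the transcriptional activators Arntl (BMAL1) and Clock, their repressors Per2, Per3, Cry1 and Cry2, the nuclear receptors Nr1d1 and Nr1d2 (REV-ERB alpha and beta), and the clock output factors Dbp and Tef. They were chosen by symbol and not by their values, and all 10 were found among the 55536 genes of the count table. The 15 libraries each came from 1 male C57Bl/6 mouse aged 10 months. The mothers of 8 animals received tributyltin (TBT), an organotin compound, in their drinking water until the pups were weaned, at a concentration of 3.07 µM and a daily dose of 0.5 mg/kg, and those of the 7 vehicle animals did not. A liver tumor is marked in the labels for vehicle 3, and no tumor status is given for the other vehicle animals. The hour at which blood was taken is not given in the sources used here, so no library could be placed on a time axis.

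The clock is a feedback loop of transcription that runs in nearly every cell. ARNTL and CLOCK pair on DNA elements called E-boxes and switch on Per, Cry, Nr1d1, Nr1d2, Dbp and Tef, after which PER and CRY proteins return to the nucleus and block the pair. The REV-ERB receptors repress Arntl, and DBP and TEF act on D-box elements, so that in rhythmic tissues Arntl and the REV-ERB genes reach their peaks at opposite times of day. Genes of such a loop would be related to each other across animals sampled at different phases, which is the relation the libraries were examined for here.

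Promoter sequences show which of these elements lie at the starts of the genes. Windows of 300 bases, from 250 before to 50 after a gene's start, were matched by symbol in RefSeq (GRCm38.p6) for 9 of the 10 genes. Capitals mark each match to an E-box (CACGTG), an E-prime-box (CACGTT, printed as AACGTG where it lies on the opposite strand), a D-box (TTATGTAA) or the core of the element shared by the ROR and REV-ERB receptors (TAGGTCA), searched on both strands. The windows below, written 5′ to 3′ on the gene's own strand, are 5 that hold a match, from an activator, a period gene, a cryptochrome, a REV-ERB gene and an output gene.
Arntl: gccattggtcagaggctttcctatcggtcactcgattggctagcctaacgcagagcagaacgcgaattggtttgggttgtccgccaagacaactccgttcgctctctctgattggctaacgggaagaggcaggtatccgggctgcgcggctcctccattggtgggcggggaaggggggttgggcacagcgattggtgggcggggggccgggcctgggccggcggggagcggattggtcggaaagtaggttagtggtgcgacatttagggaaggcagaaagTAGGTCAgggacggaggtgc
Per3: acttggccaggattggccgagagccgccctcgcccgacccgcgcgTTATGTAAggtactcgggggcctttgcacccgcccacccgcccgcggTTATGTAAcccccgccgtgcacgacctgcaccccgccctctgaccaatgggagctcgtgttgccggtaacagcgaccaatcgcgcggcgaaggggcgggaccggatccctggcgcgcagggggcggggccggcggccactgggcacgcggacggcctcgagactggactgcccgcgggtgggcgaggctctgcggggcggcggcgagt
Cry1: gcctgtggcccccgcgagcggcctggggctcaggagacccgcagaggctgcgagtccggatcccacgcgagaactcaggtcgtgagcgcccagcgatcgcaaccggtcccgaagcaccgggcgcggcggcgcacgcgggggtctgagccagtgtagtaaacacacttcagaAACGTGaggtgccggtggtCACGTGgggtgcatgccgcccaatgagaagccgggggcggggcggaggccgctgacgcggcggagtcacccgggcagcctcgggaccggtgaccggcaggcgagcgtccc
Nr1d1: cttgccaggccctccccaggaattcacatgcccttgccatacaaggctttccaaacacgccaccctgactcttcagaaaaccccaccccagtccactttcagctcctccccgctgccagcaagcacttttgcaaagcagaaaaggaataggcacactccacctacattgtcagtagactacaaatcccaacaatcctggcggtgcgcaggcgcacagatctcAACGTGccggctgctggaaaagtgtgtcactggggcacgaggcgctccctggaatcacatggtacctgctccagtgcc
Tef: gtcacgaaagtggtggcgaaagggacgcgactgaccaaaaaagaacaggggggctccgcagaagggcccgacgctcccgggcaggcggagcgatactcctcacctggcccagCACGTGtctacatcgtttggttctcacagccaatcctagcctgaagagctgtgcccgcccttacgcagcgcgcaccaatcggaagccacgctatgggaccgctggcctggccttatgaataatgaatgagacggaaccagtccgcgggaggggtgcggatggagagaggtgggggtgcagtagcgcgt
The Arntl window (chr7:113207261-113207560, plus strand) has the receptor element with its first base 31 bases after the start. Per3 (chr4:151044616-151044915, minus strand) has a pair of D-boxes, 205 and 158 bases before the start. Cry1 (chr10:85185005-85185304, minus strand) holds an E-box 60 bases before the start and an E-prime-box 79 bases before it. Nr1d1 (chr11:98775328-98775627, minus strand) holds an E-prime-box 28 bases before the start, and Tef (chr15:81811164-81811463, plus strand) an E-box 138 bases before the start of its downstream window. Among all 32851 windows of the table, 7.15% held the E-box, 4.68% the E-prime-box, 0.938% the D-box and 2.61% the receptor element. Counted by gene, over 27025 genes, the shares were 8.09%, 5.44%, 1.11% and 2.97% in the same order. Of the 9 clock genes with a window, 2 held the E-box (Cry1 and Tef), 3 the E-prime-box (Cry1, Cry2 and Nr1d1), 1 the D-box and 1 the receptor element, and Clock, Nr1d2 and Dbp held none of these letters. The other Arntl window, from a neighbouring start, held none either. No motif searched overlaps another. A match is a description of the letters and not of binding.

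The count table was shallow for several of these genes. The libraries held 6.03 M to 11.99 M counts each, of which haemoglobin genes took 28.7% to 50.8%. Levels are given as CPM, the counts of a gene per 1 M counts of its library, on library sizes scaled by the trimmed mean of M values (TMM). TBT 2 and TBT 8 had the lowest scaling factors, 0.404 and 0.528, and vehicle 6 had 13.98% of its counts in the RNA gene Gm23935, against at most 0.441% elsewhere; these 3 libraries stood apart and results that rest on them are given without them as well. Markers of blood cells were present at high levels, with the 9 erythroid markers found in the table summing to at least 190978 CPM in each library. In such bulk samples, fewer cells of a type and less RNA per cell cannot be told apart.

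All 10 genes were detected in every library and passed the filter on low counts. Reads per library ran from 75 to 525 for Clock but from 4 to 37 for Nr1d1 and from 4 to 39 for Dbp. Per kb of merged exon length, Nr1d2 was highest at 3.07 ± 0.439 CPM per kb (SD, n = 15), and Per3 was lowest at 0.433 ± 0.153. Cry1 (2.09 ± 0.414 CPM per kb) and Clock (1.99 ± 0.348) followed Nr1d2 and were within their spread of each other. Arntl (1.54 ± 0.190) and Tef (1.45 ± 0.290) formed the next such neighbours. Per2 (0.785 ± 0.294), Dbp (0.705 ± 0.245), Cry2 (0.574 ± 0.136), Nr1d1 (0.473 ± 0.255) and Per3 lay at the low end, each within the larger of the SDs of its next neighbour. The plot of levels by library shows all values.

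**Figure D1:**
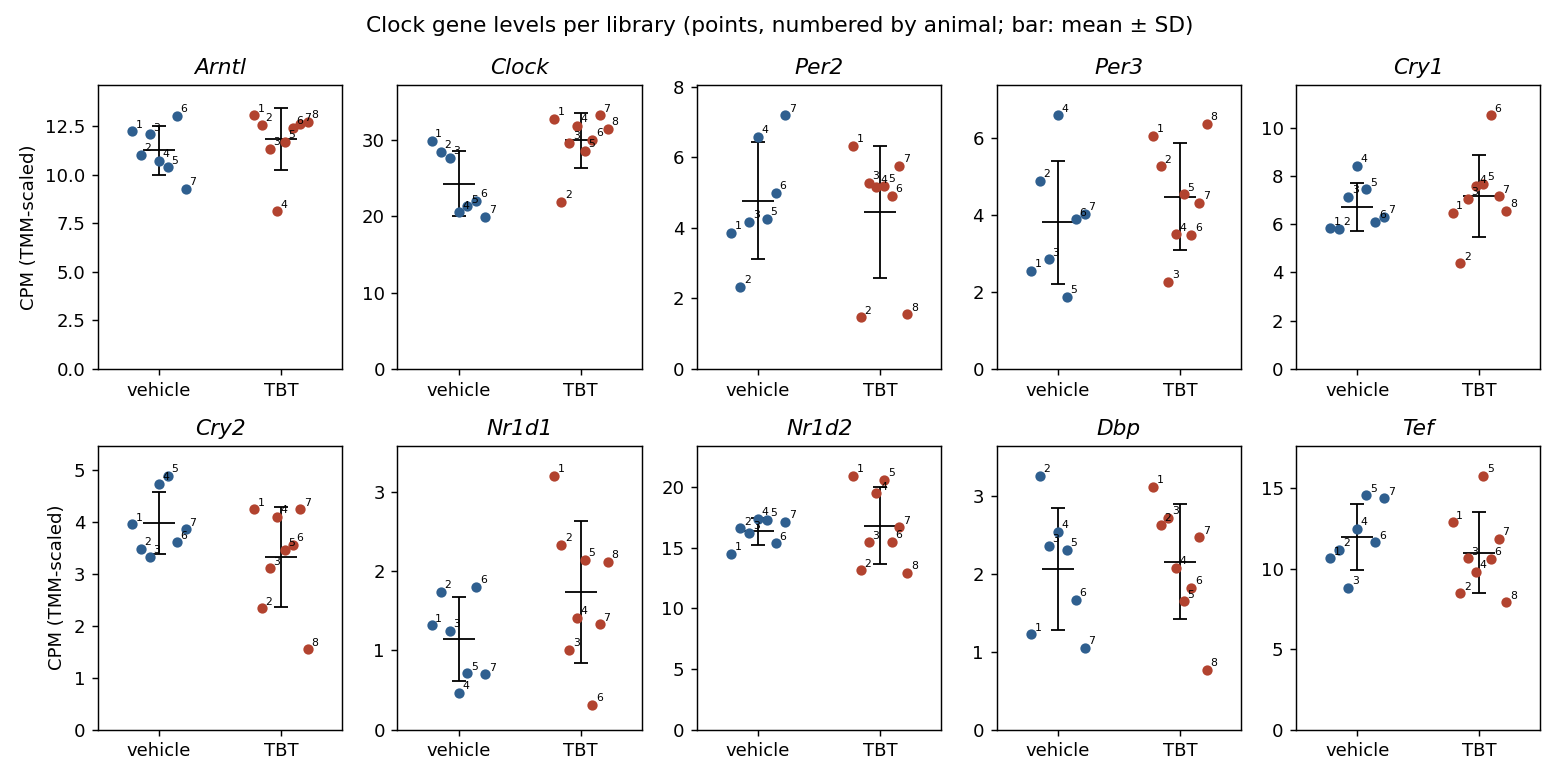
Level of each clock gene (CPM on TMM-scaled library sizes, y axis) in each animal by group, with the group mean and SD; the groups overlap in every panel, and the lowest Arntl value is TBT 4 at 8.12 CPM.

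TBT and vehicle animals did not separate by any of the 10 genes. With edgeR's quasi-likelihood test and Benjamini-Hochberg adjustment over 13364 genes, 0 of the 10 passed an adjusted p of 0.05, as did 0% of all tested genes. At an unadjusted p under 0.05, 1 of the 10 passed, Clock, against 6.33% of all tested genes in either direction and 4.57% with a higher level in TBT animals. The fitted log2 difference, TBT minus vehicle, was above 0 for 7 genes and below 0 for 3, with a median of 0.06, where 59.4% of all genes were above 0 and their median was 0.05. No clock gene had groups without overlap, a state seen in 0.112% of tested genes.

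Among the activators, Arntl, on chromosome 7 (113207465 to 113314126, plus strand, GRCm38), had a lowest, median and highest level of 8.12, 12.5 and 13.1 CPM in TBT animals and of 9.29, 11.03 and 13.02 CPM in vehicle animals. TBT 4 alone lay below all vehicle animals, while the other 7 TBT animals lay between 11.3 and 13.1 CPM. The means were 11.8 ± 1.60 CPM (SD, n = 8) and 11.3 ± 1.27 CPM (SD, n = 7), and the log2 difference was 0.06 with an SE of 0.114 (edgeR, adjusted p = 0.979). Clock, whose protein is ARNTL's partner, lies on chromosome 5 (76209868 to 76304792, minus strand). Its lowest, median and highest level was 21.9, 30.7 and 33.2 CPM with TBT and 19.97, 22.03 and 29.9 CPM with vehicle. Vehicle animals fell on both sides of a gap, with 4 between 19.97 and 22.03 CPM and 3 between 27.7 and 29.9 CPM. Of the 8 TBT animals, 5 lay above every vehicle animal and only TBT 2 lay below the vehicle median, so the groups overlapped. The log2 difference was 0.30 with an SE of 0.113 and a 95% interval of 0.07 to 0.54 (edgeR, unadjusted p = 0.0147, adjusted p = 0.725). Without the 3 libraries that stood apart it was 0.32 (unadjusted p = 0.00784, adjusted p = 0.132), in a fit in which 17% of 13590 tested genes had an unadjusted p under 0.05 and 7 passed the adjustment. Clock's level and the platelet marker score, the mean centred log2 CPM of 10 markers such as Pf4 and Ppbp, moved in opposite directions across the 15 libraries (Pearson's r -0.516, permutation p = 0.0502, adjusted p = 0.207 over 70 relations; Spearman's rho -0.464, permutation p = 0.0830). In the 12 libraries left without those 3, r was -0.720 (permutation p = 0.00818, adjusted p = 0.286). With the erythroid score, r of Clock in those 12 was -0.573 (permutation p = 0.0492, adjusted p = 0.683). All 10 platelet markers were found in the libraries, summing to 2527 to 15201 CPM with TBT and 2717 to 7353 CPM with vehicle; their part in the Clock values was not tested.

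Of the repressors, the period genes Per2 and Per3 were spread more widely than the activators, and neither differed between groups past the adjustment. Per2 encodes a period protein of the repressor complex, on chromosome 1 (91415982 to 91459324, minus strand). It ranged from 1.46 through a median of 5.18 to 6.31 CPM with TBT and from 2.32 through 4.26 to 7.18 CPM with vehicle. TBT 2 and TBT 8, with 5 and 8 reads, were the lowest of all 15 animals and the other 6 TBT animals lay between 4.90 and 6.31 CPM. The log2 difference was -0.02 with an SE of 0.280 (edgeR, adjusted p = 0.997), and it was 0.22 (adjusted p = 0.659) without TBT 2, TBT 8 and vehicle 6. Its sign also turned when TBT 2 (0.06), TBT 8 (0.08), vehicle 4 (0.07) or vehicle 7 (0.09) alone was left out. Per3, a second period gene, on chromosome 4 (151003652 to 151044665, minus strand), ranged from 2.25 through 4.42 to 6.37 CPM with TBT and from 1.86 through 3.88 to 6.58 CPM with vehicle. High and low animals occurred in both groups, with vehicle 4 and TBT 8 at the top and vehicle 5 and TBT 3 at the bottom, and the log2 difference was 0.22 with an SE of 0.263 (edgeR, adjusted p = 0.964). It was 0.089 without vehicle 5, 0.41 without vehicle 4 and 0.097 without TBT 2, TBT 8 and vehicle 6.

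The cryptochromes, which carry the repressing activity of the complex, likewise overlapped between groups. Cry1, on chromosome 10 (85131700 to 85185064, minus strand), had a lowest, median and highest level of 4.38, 7.11 and 10.5 CPM with TBT and of 5.81, 6.31 and 8.42 CPM with vehicle. Both extremes were TBT animals, TBT 2 at the bottom and TBT 6 at the top. The log2 difference was 0.11 with an SE of 0.151 (edgeR, adjusted p = 0.972), and it was -0.0045 without TBT 6. Cry2, on chromosome 2 (92403646 to 92434043, minus strand), had 1.54, 3.51 and 4.24 CPM with TBT and 3.33, 3.85 and 4.88 CPM with vehicle. TBT 8 and TBT 2, with 8 reads each, and TBT 3 lay below every vehicle animal, and the other 5 TBT animals lay among them. The log2 difference of -0.22 had an SE of 0.188 and a 95% interval of -0.61 to 0.18 (edgeR, adjusted p = 0.938), and without TBT 2, TBT 8 and vehicle 6 it was -0.10 (adjusted p = 0.820).

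The REV-ERB genes differed in how far they ranged. Nr1d1, on chromosome 11 (98767932 to 98775333, minus strand), had 0.316, 1.77 and 3.20 CPM as lowest, median and highest with TBT and 0.462, 1.25 and 1.80 CPM with vehicle. Its highest and its lowest animal were TBT 1, with 37 reads, and TBT 6, with 4 reads, and 4 TBT animals lay above every vehicle animal. The log2 difference was 0.55 with an SE of 0.395 and a 95% interval of -0.28 to 1.38 (edgeR, adjusted p = 0.897), and it ran from 0.33 without TBT 1 to 0.71 without TBT 6 when 1 animal was left out. Nr1d2, on chromosome 14 (18204054 to 18239127, minus strand), had 12.9, 16.1 and 20.9 CPM with TBT and 14.5, 16.6 and 17.4 CPM with vehicle. All 7 vehicle animals fell inside the TBT range, with TBT 8 and TBT 2 lowest and TBT 1, TBT 5 and TBT 4 highest. The log2 difference was 0.05 with an SE of 0.114 (edgeR, adjusted p = 0.984), and it was -0.01 without TBT 5.

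The output factors, both of the PAR bZIP family, gave the same picture of overlap. Dbp, on chromosome 7 (45705088 to 45710203, plus strand), ranged from 0.772 through 2.27 to 3.11 CPM with TBT and from 1.05 through 2.31 to 3.25 CPM with vehicle, with TBT 8 lowest on 4 reads. Its log2 difference was 0.07 with an SE of 0.273 (edgeR, adjusted p = 0.993), and it was -0.03 without TBT 1, without vehicle 1 or without vehicle 7. Tef, on chromosome 15 (81802421 to 81826863, plus strand), ranged from 7.91 through 10.6 to 15.7 CPM with TBT and from 8.81 through 11.6 to 14.5 CPM with vehicle. TBT 8 and TBT 2 were again the lowest animals and TBT 5 was the highest. The log2 difference was -0.10 with an SE of 0.148 (edgeR, adjusted p = 0.975). It was -0.0086 without TBT 2, TBT 8 and vehicle 6, and ran from -0.21 without TBT 5 to -0.056 without vehicle 7 when 1 animal was left out.

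Reads of genes on the opposite strand could have entered some of these counts, since whether the counting used strand is not given in the sources used here. In the annotation, 18.01% of the exon length of Dbp is shared with Sphk2, 8.55% of that of Nr1d1 with Thra, 4.67% of that of Cry2 with D930015M05Rik and 2.45% of that of Tef with Gm17597. For Arntl the shared part, with Gm45355, is 0.439%. The share of reads that came from these neighbours is not known, so the values of these genes, Dbp and Nr1d1 above all, are uncertain.

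Animals differed more in some clock genes than in others. The biological coefficient of variation (BCV), edgeR's estimate of spread between animals beyond counting error, was highest for Nr1d1 at 45.02%, followed by Per2 at 34.2%, Per3 at 32.7% and Dbp at 28.3%. The other 6 genes had a BCV of 15.4% to 19.8%, where the common value over all tested genes was 29.0%. Against the 200 tested genes nearest to each in level, Per2, Nr1d1 and Per3 stood at the 84.5th, 83.5th and 83rd percentile of BCV. Cry2 stood at the 7.5th and Arntl at the 9.5th percentile. Without TBT 2, TBT 8 and vehicle 6, the BCV of Per2 was 22.1% (64th percentile), while Nr1d1 had 45.1% (95.5th percentile) and Per3 32.1% (91.5th percentile). Cry2 then stood at the 3.5th percentile and Arntl at the 29th.

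**Figure D2:**
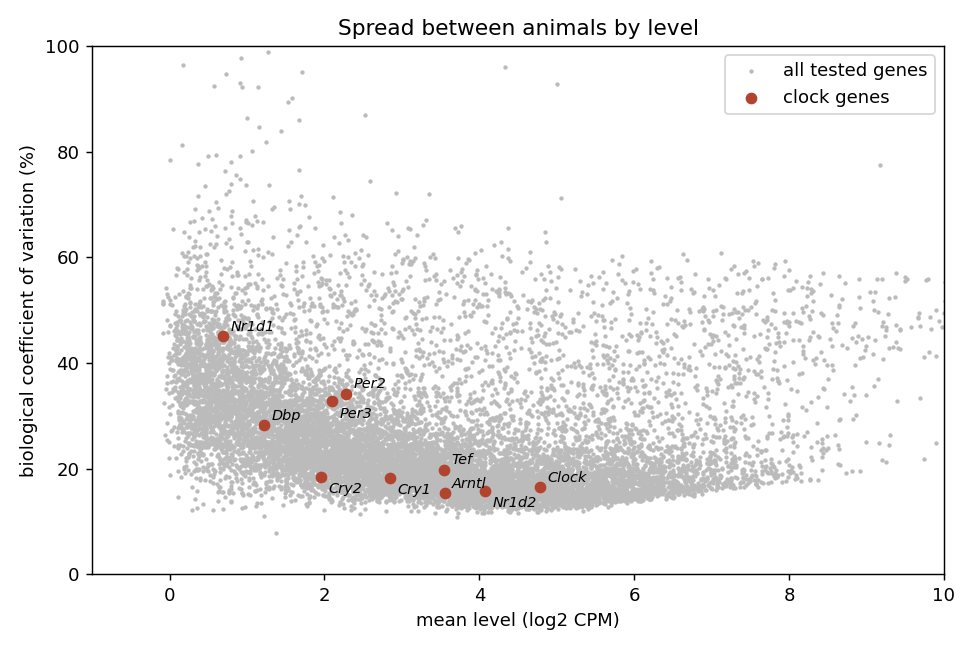
Biological coefficient of variation (percent, y axis) against mean level (log2 CPM, x axis) of the tested genes over all 15 libraries, with the clock genes marked. Among the clock genes Nr1d1 has the highest value, 45.02%, followed by Per2 at 34.2%.

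Relations between the genes were then examined across the 15 animals, as Pearson's r and Spearman's rho of log2 CPM over all 45 pairs. By Pearson's r, 7 pairs passed an adjusted permutation p of 0.05, and by rank correlation 0 did, with 7 at an unadjusted permutation p under 0.05 and a smallest adjusted p of 0.122. Across animals sampled at different phases, the loop predicts opposite movement of Arntl and the REV-ERB genes. No pair with Arntl passed, but the hours of sampling are not known, so this is not a test of the loop. For Arntl and Nr1d2, r was -0.399 (permutation p = 0.141, adjusted p = 0.497; rho -0.396, p = 0.144), -0.352 within TBT and -0.779 within vehicle animals, and -0.236 without the pair of animals farthest from the median of Arntl. For Arntl and Nr1d1 the sign was the other way, with r 0.345 (permutation p = 0.210, adjusted p = 0.497; rho 0.543, p = 0.0390, adjusted p = 0.266). Arntl had r of -0.301 with Per2, -0.358 with Cry2, -0.225 with Tef, -0.184 with Cry1, 0.226 with Per3, 0.226 with Clock and 0.02 with Dbp, for which adjusted permutation p-values ran from 0.497 to 0.961. Single animals moved several of these values: r of Arntl with Clock was 0.594 without TBT 4 and 0.0413 without vehicle 7. With Tef it was -0.515 without TBT 4 and -0.0919 without vehicle 7, and with Nr1d2 it was -0.615 without TBT 1 and -0.247 without TBT 4. The map of all pairs shows these beside the others.

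**Figure D3:**
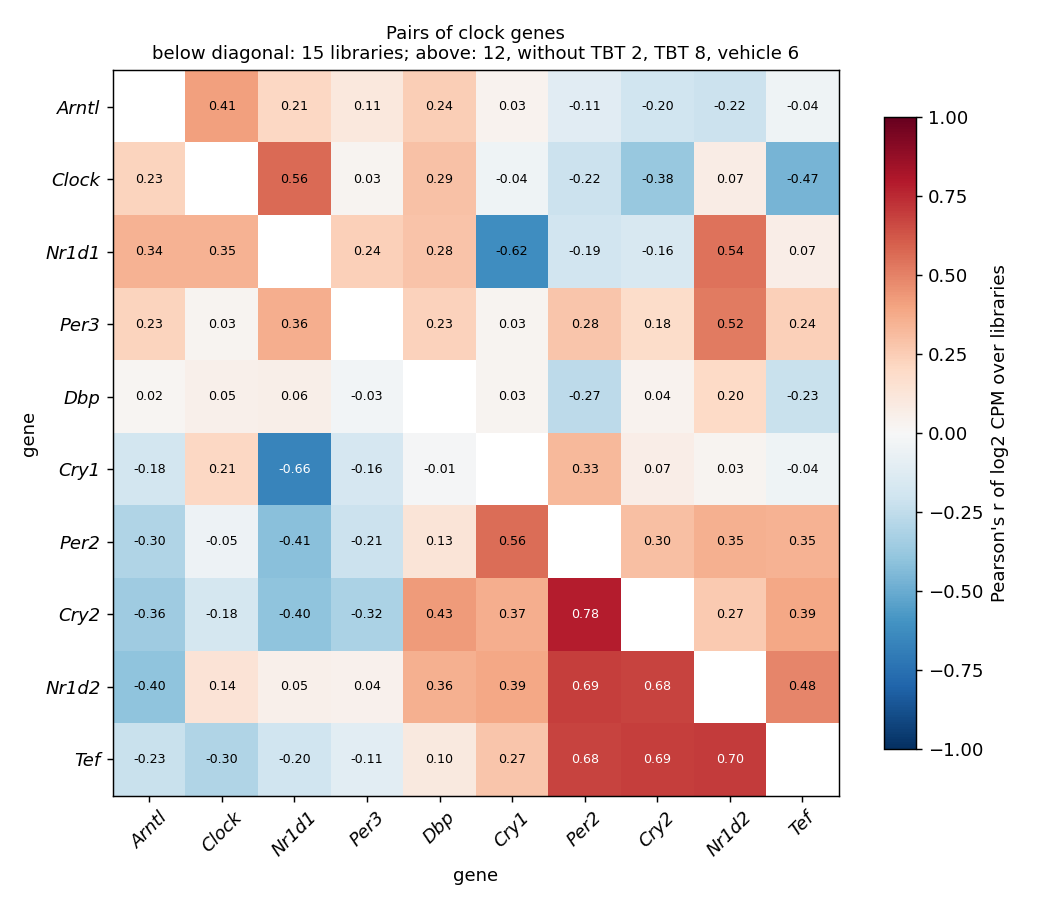
Pearson's r of log2 CPM for every pair of clock genes, over all 15 libraries and over the 12 left without TBT 2, TBT 8 and vehicle 6; the block of high values among Per2, Cry2, Nr1d2 and Tef, 0.675 to 0.784 with all libraries, is 0.266 to 0.485 without the 3.

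Per2, Cry2, Nr1d2 and Tef, targets of the activator pair or parts of the repressor arm, were positively related in all 6 pairs they form. The highest was Per2 with Cry2 (r 0.784, permutation p = 0.00188, adjusted p = 0.0364; rho 0.536, p = 0.0414), and the lowest was Cry2 with Nr1d2 (r 0.675, permutation p = 0.00416, adjusted p = 0.0364; rho 0.618, p = 0.0158). Nr1d2 with Tef (r 0.697, rho 0.704), Per2 with Nr1d2 (r 0.694, rho 0.671), Cry2 with Tef (r 0.694, rho 0.596) and Per2 with Tef (r 0.677, rho 0.664) lay between, also with an adjusted permutation p of 0.0364. TBT 2 and TBT 8 were the lowest 2 of 15 animals for each of the 4 genes. For Per2, Cry2 and Nr1d2, the first-named genes of these pairs, those animals are also the 2 farthest from the median. Leaving them out gave an r of 0.298 for Per2 with Cry2, 0.386 for Cry2 with Tef, 0.472 for Nr1d2 with Tef, 0.334 for Per2 with Nr1d2, 0.294 for Cry2 with Nr1d2 and 0.347 for Per2 with Tef. The strength of the block thus rests in large part on TBT 2 and TBT 8. They had the smallest effective depth of the series, 3.42 M and 5.18 M counts after TMM scaling. They also had the highest platelet scores, 1.62 and 1.46, and the highest erythroid scores, 1.74 and 1.00. Within vehicle animals, r was positive in all 6 pairs. It ran there from 0.305 for Per2 with Nr1d2 to 0.689 for Cry2 with Tef. The part of depth or cell makeup was not tested. Without TBT 2, TBT 8 and vehicle 6, 0 of 45 pairs passed the adjustment and 1 had an unadjusted permutation p under 0.05. The count of 7 pairs was also 0 when TBT 1, TBT 2, TBT 7, TBT 8 or vehicle 4 alone was left out and 1 when vehicle 5 was. Pairs at an unadjusted permutation p under 0.05 numbered 8 with all libraries. They numbered 11 without TBT 1 and 8 without TBT 2, TBT 7, TBT 8 or vehicle 4. The lowest r in the block with 1 library left out was 0.557, for Cry2 with Nr1d2 without TBT 8. The count past the adjustment was 7 with a prior count of 0.5 and 7 with group centring. It was 0 with RLE size factors, where 7 pairs had an unadjusted permutation p under 0.05.

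The 1 negative relation among the 7 joined Cry1 and Nr1d1. Cry1 is known as a late gene of the loop whose transcription REV-ERB alpha represses. The windows printed above hold an E-prime-box in both genes. Cry2 holds one too. Its pair with Nr1d1 did not pass (r -0.399, adjusted permutation p = 0.497), with r -0.201 within TBT and -0.789 within vehicle animals. Whether repression or the motif bears on the relation was not tested. Across 15 animals r was -0.663 (permutation p = 0.00682, adjusted p = 0.0438; rho -0.479, p = 0.0745, adjusted p = 0.351). TBT 6 had the highest Cry1 level, 10.5 CPM, and the lowest Nr1d1 level, and TBT 2 had the lowest Cry1 level, 4.38 CPM, with Nr1d1 at 2.34 CPM. Vehicle 4 had the second highest Cry1 level, 8.42 CPM, and the second lowest Nr1d1 level, 0.462 CPM. Within TBT animals r was -0.736 and within vehicle animals it was -0.788. It was -0.618 without TBT 2, TBT 8 and vehicle 6 (permutation p = 0.0315, adjusted p = 0.8498), -0.493 without TBT 6, and -0.425 without TBT 2 and TBT 6, the animals farthest from the median of Cry1. The relation kept its sign in these settings but rested in part on TBT 2 and TBT 6, and the low reads of Nr1d1 limit it.

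**Figure D4:**
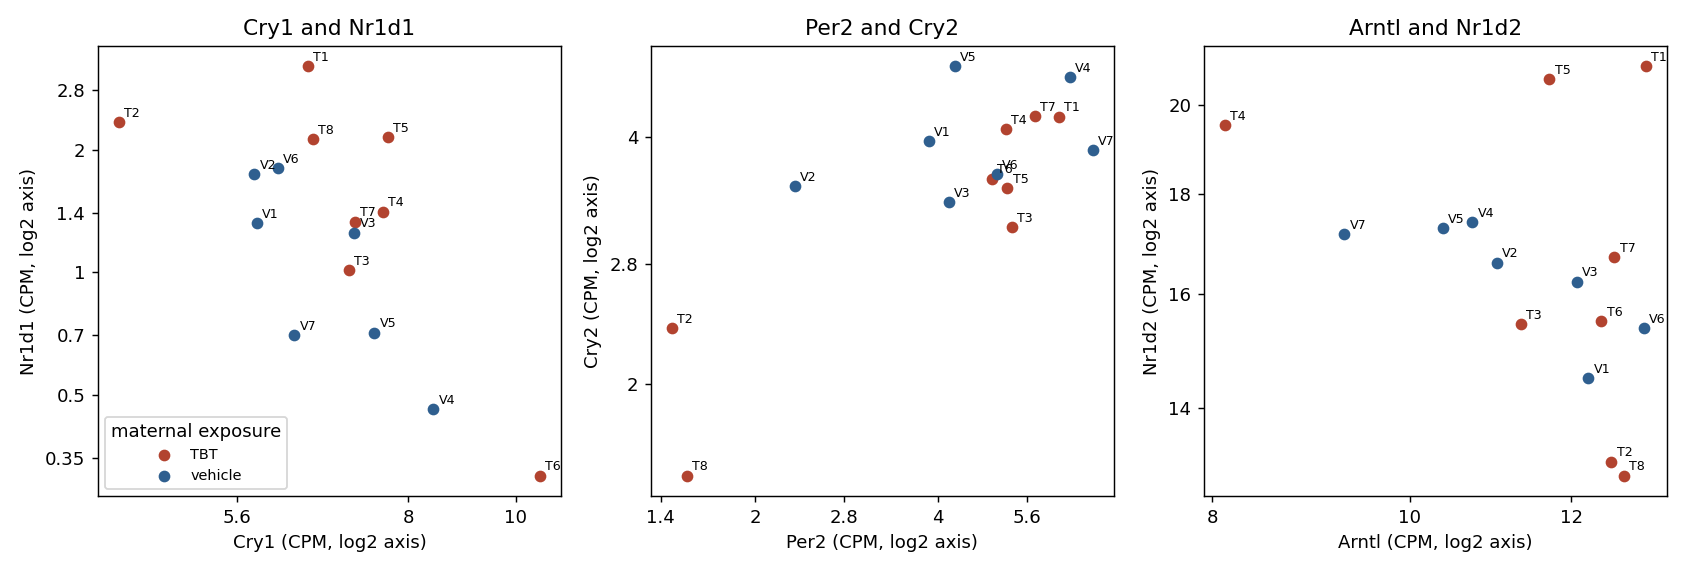
Levels (CPM, log2 axes) of Cry1 against Nr1d1, Per2 against Cry2 and Arntl against Nr1d2, 1 point per animal (T, TBT; V, vehicle); TBT 6 has Cry1 at 10.5 CPM and Nr1d1 at 0.316 CPM, and TBT 2 and TBT 8 have Per2 at 1.46 and 1.54 CPM, below all others.

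Ratios of raw reads within a library do not depend on library scaling. They are given as a description, since they were chosen after counts had been seen, the libraries named are the extremes of 15, and the exact 95% intervals cover counting error only. In TBT 4, Nr1d2 had 291 reads against 121 of Arntl, a ratio of 2.40 (1.94 to 3.00), which was the highest, and in TBT 8 the ratio was lowest at 1.02 (0.712 to 1.45). Clock over Arntl was also highest in TBT 4, at 3.93 (3.21 to 4.83), and lowest in vehicle 6, at 1.69 (1.30 to 2.21). Both ratios in TBT 4 divide by the same 121 Arntl reads, so they are not separate support for its low Arntl CPM. Cry1 over Arntl was also highest in TBT 4. Per3, Per2, Tef and Dbp over Arntl were highest in vehicle animals. Per3 over Arntl ran from 0.179 in vehicle 5 (0.107 to 0.287) to 0.613 in vehicle 4 (0.433 to 0.861), both control animals. Nr1d1 over Cry1 ran from 0.0301 in TBT 6, with 4 reads against 133 (0.00808 to 0.0788), to 0.533 in TBT 2 (0.196 to 1.34) on few reads, and TBT 1 had 0.493 on 37 reads against 75.

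**Figure D5:**
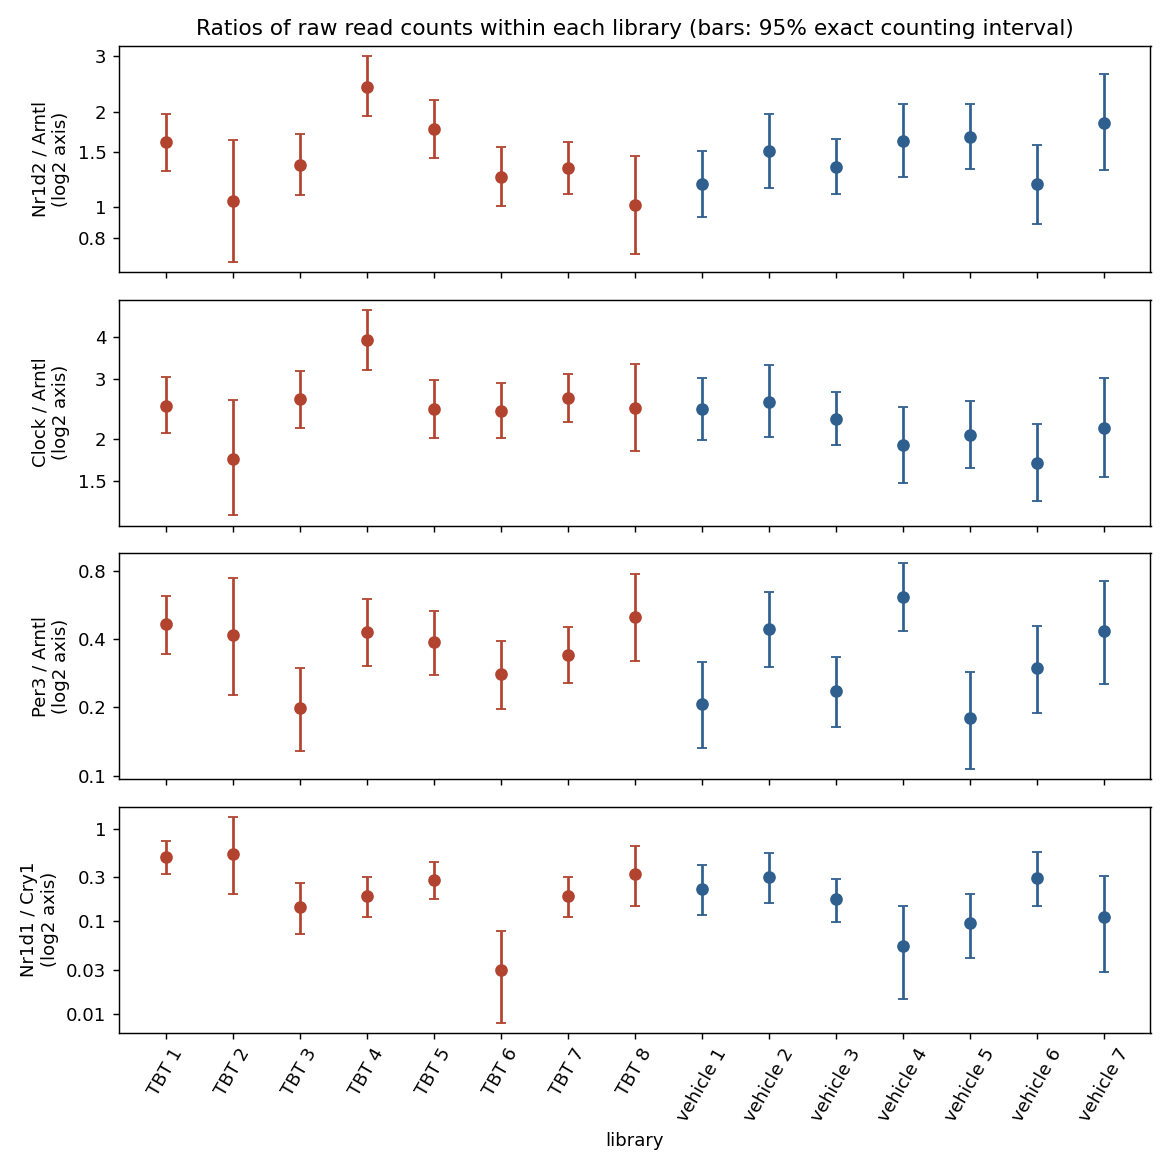
Ratio of raw reads of gene pairs (log2 axes) in each library, with exact 95% intervals for counting error; Nr1d2 over Arntl and Clock over Arntl are highest in TBT 4, at 2.40 and 3.93, and Nr1d1 over Cry1 is lowest in TBT 6, at 0.0301.

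Levels of the clock genes were also set beside blood cell markers. Of 70 relations between the 10 genes and 7 marker scores, 0 passed the adjustment by Pearson's r or rank correlation, with 15 at an unadjusted permutation p under 0.05 by Pearson's r and 7 by rank. The smallest p was that of Cry2 with the B cell score (r 0.773, permutation p = 0.00148, adjusted p = 0.0616; rho 0.707, p = 0.00447; r 0.533 without the pair of animals farthest from the median and 0.561 without TBT 2, TBT 8 and vehicle 6). Within TBT animals r was 0.789 and within vehicle animals it was 0.308. Cry2 had a similar r with the T cell score, 0.767 (permutation p = 0.00246, adjusted p = 0.0616), with a rho of 0.496 (p = 0.0611). That r was 0.912 within TBT, 0.403 within vehicle animals and 0.277 without the 3 libraries. Nr1d2 with the T cell score (r 0.690) and Per2 with the erythroid score (r -0.698) also had an adjusted permutation p of 0.0616. All 10 B cell markers were found, summing to 734 to 1787 CPM with TBT and 1092 to 1572 CPM with vehicle. Per3 moved against the neutrophil score in both groups, with r -0.714 over all animals (permutation p = 0.00280, adjusted p = 0.0616; rho -0.675, p = 0.00686), -0.804 within TBT, -0.789 within vehicle, -0.503 without the pair farthest from the median and -0.672 without the 3 libraries. All 10 neutrophil markers were found, at 359 to 777 CPM in sum with TBT and 416 to 1051 CPM with vehicle. The neutrophil score used the 8 that passed the filter on low counts. Per2 with the platelet score had r -0.690 (permutation p = 0.00528, adjusted p = 0.0616; rho -0.461, p = 0.0842), but -0.982 within TBT, 0.171 within vehicle and -0.173 without the pair of animals farthest from the median. Without the 3 libraries, 1 relation of 70 passed, Cry2 with the monocyte score (r -0.843, permutation p = 0.00064, adjusted p = 0.0448 over 12 animals), and 4 had an unadjusted p under 0.05. Over all 15 animals the same pair had r -0.155 (permutation p = 0.581, adjusted p = 0.727; rho -0.411, p = 0.128), with 0.221 within TBT and -0.752 within vehicle animals, so its value depends on the libraries kept. All 10 monocyte markers were found, at 688 to 3075 CPM with TBT and 503 to 1327 CPM with vehicle. None of the listed markers was at 0 in all libraries, and the part of cell makeup in the clock levels was not tested.

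Per3 was also examined beside liver markers such as Alb, a choice made after values had been seen. Its r with the hepatocyte score was 0.607 (permutation p = 0.0167, adjusted p = 0.167 over 10 genes; rho 0.582, p = 0.0256) and 0.430 without vehicle 4 and TBT 1, the animals farthest from the median. The score used the 5 hepatocyte markers that passed the filter on low counts. All 7 listed hepatocyte markers summed to 1.39 to 525 CPM with TBT and 3.95 to 841 CPM with vehicle. Their part in the Per3 values was not tested.

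Other clock and rhythm genes gave a similar account of the groups. The list held 25 further core or accessory clock genes and genes that cycle in many mouse tissues. Of these, 18 were tested and 0 passed the adjustment in edgeR. A log2 difference above 0 was seen for 11 and below 0 for 7, with a median of 0.07. Over all tested genes, 59.4% were above 0 and 6.33% had an unadjusted p under 0.05 in edgeR. The 1 gene at an unadjusted p under 0.05 was Nampt, an enzyme of NAD synthesis whose transcription follows the clock. It ranged from 15.04 through 26.3 to 28.2 CPM with TBT and from 15.6 through 18.6 to 25.9 CPM with vehicle, with a log2 difference of 0.33 and an SE of 0.148 (edgeR, unadjusted p = 0.0397, adjusted p = 0.758). Rora, a receptor that activates Arntl at the element REV-ERB receptors bind, had a log2 difference of 0.33 (edgeR, adjusted p = 0.872). Below 0 were Ciart, a repressor of the activator pair, at -0.72 (SE 0.370, unadjusted p = 0.0691, adjusted p = 0.825), Timeless at -0.28 and the period gene Per1 at -0.27. Ciart had 0 to 1.64 CPM with TBT and 0.847 to 2.45 CPM with vehicle. The repressors Bhlhe40 and Nfil3 stood at 0.20 and -0.06, and Bhlhe40 at 0.013 without TBT 3 and 0.36 without vehicle 3. Npas2, a relative of Clock, and Usp2 were under the filter on low counts, with at most 0.976 and 0.964 CPM in any library.

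Per1 was highest in vehicle 3, the animal with the labelled tumor, at 37.5 CPM, where the other 6 vehicle animals lay between 14.7 and 19.9 CPM; without vehicle 3 its log2 difference was -0.05. The glucocorticoid-responsive gene Tsc22d3 was highest there too, at 189 CPM against 69.5 to 107 CPM in the other vehicle animals. Among the 10 core genes, vehicle 3 was the lowest vehicle animal for Tef (8.81 CPM) and Cry2 (3.33 CPM), and for the other 8 it lay inside the vehicle range. The part of the tumor in these values was not tested. Among 14 genes that follow time of day through hormones or body temperature, 12 were tested, 0 passed the adjustment or an unadjusted p under 0.05 in edgeR, and 6 lay on each side of 0, with a median of 0.07. Per1 and Tsc22d3 are also on the list of 25 above. The 3 with the smallest p on each side were Dnajb1 (log2 difference 0.20), Hsp90aa1 (0.16) and Klf9 (0.31) above 0, and Per1, Cirbp (-0.14) and Ddit4 (-0.32) below.

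Outside the clock, genes with patterns most like Arntl and Dbp were sought among 7861 genes with a mean of at least 5 CPM, by Pearson's r over the 15 libraries and as a description only. For Arntl the highest were Ssh1 (r 0.706), Slc7a6, Ddx10, Socs7 and Ormdl1 (0.638), and among the lowest were Zbtb8os (-0.653), Zranb2, Timm10b and Rbm3 (-0.613). Without the 3 libraries that stood apart, Ssh1 had an r of 0.684 and Zbtb8os of -0.626. For Dbp the highest were Ubr7 (r 0.855), Scnm1, Snu13, Fam120b and Vipas39 (0.798), and the lowest were Dnajc8 (-0.774), Alox5, Tmcc3, Aagab and Acat1 (-0.750). The libraries differ in depth and cell markers, and each gene's values share those differences, so the values describe likeness in these animals alone.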

How the data were processed

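Per the labels' protocols, total RNA of whole blood was isolated with RNeasy columns, DNase-treated and made into libraries with the TruSeq Stranded Total RNA kit. Trim Galore, HISAT2 (mm10) and featureCounts are the trimming, alignment and counting tools per the submitters' processing notes. Their versions, the annotation release and any use of strand were not stated there. Raw gene counts were deposited by the authors, a column per animal, used as deposited. Coordinates are those of GENCODE M21 on GRCm38, which held 55450 of 55536 identifiers.

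Genes were filtered by filterByExpr and the 8 TBT animals compared with the 7 vehicle animals in edgeR 4.0.16 (R 4.3.3; TMM, robust glmQLFit and glmQLFTest, no covariate), adjusted by Benjamini-Hochberg at 0.05; the code was tested on simulated data. Correlations used log2 CPM (prior count 2), two-sided p-values from 100000 permutations (SciPy 1.17.1) and adjustment over the 45 pairs or 70 gene-score relations. Same-numbered animals of the groups are not stated to be related. The clock genes and lists were chosen with earlier results of these data known. Genes outside the core clock were named by rule: the 3 with the smallest p on each side of each list, a few fixed clock genes, and the 5 genes most and least like Arntl and Dbp; some genes this rule takes are not reported here. Alternatives were DESeq2, limma-voom with sample quality weights, RLE factors, no filter, a replicate block, other prior counts, group centring, residuals after B cell, neutrophil and platelet scores, and leaving out each library. The setting without TBT 2, TBT 8 and vehicle 6 was added after seeing the data for the marker scores and the spread.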

Additional observations from a re-analysis of the deposited data

Results flagged for a closer look

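A gap test for a sample far from the rest of its group (Dixon's 95% critical value) was applied to 52 groups of values, 11 of which passed; chance alone flags about 1 in 20 such groups. Among the core clock genes, Arntl in TBT 4 was low at 8.12 CPM (121 reads), with the nearest TBT animal at 11.3 CPM, and Clock in TBT 2 was low at 21.9 CPM (75 reads), with the nearest at 28.6 CPM. Among other clock and rhythm genes, TBT 2 was high for Timeless (6.13 CPM, 21 reads) and Hsp90aa1 (122 CPM). Klf9 was high in TBT 8, at 11.96 CPM, and Rora was high in vehicle 4, at 8.19 CPM. Vehicle 3, the animal with a labelled liver tumor, was high for 5 genes: Per1 (37.5 CPM), Klf9 (9.44 CPM), Ddit4 (22.2 CPM, with the nearest vehicle animal at 4.73 CPM), Bhlhe40 (26.0 CPM) and Tsc22d3 (189 CPM). TBT 2 has the smallest effective depth of the series, 3.42 M counts after TMM scaling. The part of that depth or of the tumor in these values was not tested.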

How the results depend on the processing

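The count of core clock genes past the adjustment was 0 in the 15 settings that left out 1 animal and in 8 others, and the lowest adjusted p of any core gene was 0.121, Clock's. Signs of small differences turned. With limma-voom and sample quality weights, which were 0.261 for TBT 2 and 0.237 for TBT 8, the log2 difference was -0.072 for Arntl, 0.29 for Per2, 0.011 for Tef, 0.19 for Ddit4, 0.15 for Nfil3 and 0.079 for Tsc22d3. With the replicate block it was 0.031 for Per2, and the block called no core gene. Without TBT 2, TBT 8 and vehicle 6 it was 0.22 for Per2, -0.0244 for Hsp90aa1 and -0.0574 for Klf9, and r of Arntl with Cry1 was 0.032. Leaving out 1 animal gave ranges of -0.14 to 0.095 for Per2, -0.0045 to 0.17 for Cry1, -0.011 to 0.081 for Nr1d2, -0.035 to 0.20 for Dbp, -0.46 to 0.42 for Ddit4, -0.19 to 0.053 for Nfil3, -0.19 to 0.10 for Tsc22d3 and, for r of Arntl with Dbp, -0.195 to 0.199. Pairs past the adjustment numbered 7 with group centring, 7 with a prior count of 0.5, 0 with RLE factors, 0 without the 3 libraries, 0 after removing the B cell, neutrophil and platelet scores, and 0 to 7 when 1 animal was left out. After removing those scores, 9 pairs had an unadjusted permutation p under 0.05, against 8 before. There r in the block ran from 0.418 (Per2 with Nr1d2) to 0.711 (Nr1d2 with Tef), and r of Cry1 with Nr1d1 was -0.661. Gene and marker score relations past the adjustment numbered 1 without the 3 libraries. The cause was not tested. Animals with the same number in the groups had correlations of deviations of -0.235 to 0.506, so the numbers were not taken to pair them. Depth limits Nr1d1 and Dbp, with as few as 4 reads in a library.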
